A study of Mus musculus with 10 samples.

Results

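The annexins were followed in mouse keratinocytes as they differentiated. The family was taken as 10 genes, Anxa1 to Anxa9 and Anxa11, and a gene was measured where probe sets of the array are annotated to its symbol alone. This gave 9 measured annexins with 20 probe sets, of 18193 genes in all. Anxa11 has no probe set of its own in the annotation, so no value is given for it. mRNA was measured on 10 Affymetrix arrays of primary keratinocytes from newborn mice. Undifferentiated cells (2 arrays) stayed in medium with 0.05 mM calcium. Differentiated cells (4 arrays) had been moved from it to 0.4 mM calcium for 2 days. The A-C/EBP cells (2 arrays) were differentiated in the same way while expressing A-C/EBP, a dominant negative protein that blocks the C/EBP family of transcription factors. The methods name wild type FVB mice and mice that express A-C/EBP in keratinocytes under tetracycline control, where doxycycline was withdrawn to induce it. They name no strain for the latter mice. They do not say which of these gave the differentiated arrays that serve as controls, and the promoter that drives the transgene is not given in the sources used here. The 5-AZA cells (2 arrays) were differentiated in the presence of 1 µM 5-azacytidine, which inhibits DNA methylation. It was added 6 hours after seeding according to the methods, whereas the sample labels place the treatment after a day in culture.

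Annexins are proteins that bind negatively charged phospholipids when calcium rises, through a conserved core of repeated domains, and their variable amino-terminal ends bind partners such as S100 proteins. They act in membrane traffic, in the resealing of torn membranes and, outside the cell, in the control of inflammation. Calcium is also the signal that starts differentiation in cultured keratinocytes, and annexins are found at the cell periphery and in the cornified envelope of the epidermis.

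The deposited values are log2 values per probe set, and probe sets of a gene were averaged. A probe set's level depends on its probes, so levels are compared between arrays and not between genes. The array medians lay between 4.64 and 4.78, and the arrays of a group correlated at r = 0.990 to 0.996 across genes, which are not independent replicates. Whether the arrays of a group came from separate cultures is not stated, and p-values then measure only the spread between these arrays. A-C/EBP replicate 2 stood apart in its hybridization controls (mean 11.34, against 9.03 to 10.59 on the other arrays), in Xist (9.93 against 5.84 to 8.27) and in the Y-linked Eif2s3y (3.74 against 5.40 to 6.03). The mean of 12 keratinocyte markers was 10.29 to 10.81 in undifferentiated, 10.09 to 10.29 in differentiated, 10.62 to 10.83 in A-C/EBP and 9.96 to 10.05 in 5-AZA cells, with no marker below the array median in any group. This mean hides opposite changes. Upon differentiation 2 of the 12 rose, such as Epcam (1.14), and 3 fell, such as Itga6 (-1.61; 6.64% and 9.14% over all genes, limma, adjusted p under 0.05). The other that rose was Ivl (0.80, limma, adjusted p = 0.0104). Krt1 and Krt10 were lower without passing (-1.29 and -1.21, limma, adjusted p = 0.067 and 0.0758). Undifferentiated replicates 1 and 2 differed in both, with Krt1 at 9.18 and 10.98 and Krt10 at 8.33 and 9.96. With 5-AZA 0 of the 12 rose and 1 fell (0.17% and 0.115% over all genes), Ivl at -1.38 (limma, adjusted p = 0.024). The mean of 8 melanocyte markers was 7.57 to 7.94 in differentiated cells and 8.23 on both 5-AZA arrays, and 7.74 to 8.27 with A-C/EBP. The part of these differences in the results was not tested. The mean of 11 fibroblast markers was 5.39 to 6.11 in undifferentiated, 5.47 to 6.38 in differentiated, 5.21 to 5.68 in A-C/EBP and 5.97 to 6.49 in 5-AZA cells, and 3 of them lay below the array median in each group. In such bulk samples, fewer cells of a type and less RNA per cell cannot be told apart.

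Differentiation was accompanied by a large increase of 1 annexin and a smaller one of another, while the other 7 did not pass the test. Anxa1 rose 1.69-fold. Anxa9 rose 28.8-fold as measured, from a starting level near the array median that is not shown to be above background. Of 9 measured annexins, 2 rose, where 6.64% of all genes rose, and 0 fell, where 9.14% of all genes fell (limma, adjusted p under 0.05, 4 against 2 arrays). At an unadjusted p under 0.05 it was 3 higher and 1 lower, the additional genes being Anxa6 and Anxa8, where 25.8% of all genes lay under that p. All 4 differentiated arrays lay above both undifferentiated arrays for 3 annexins and below them for 1, and over all genes 34.1% had no overlap. The methods name a two-sided t-test, without saying that single genes were tested with it. For mRNA changes upon differentiation they give a threshold of 0.5 on the log2 scale. That t-test, used here per gene and called the methods' t-test below, called 2 annexins without adjustment, at a difference over 0.5, and 1 with it. The median log2 difference of the 9 annexins was 0.02, and that of all genes was -0.01.

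With A-C/EBP, Anxa9 rose further, 1.96-fold above its level in differentiated cells. It was the 1 annexin of 9 that rose, where 1.49% of all genes rose, and 0 fell, where 0.572% of all genes fell. At an unadjusted p under 0.05 it was 4 higher and 1 lower (13.6% of all genes in either direction), and the methods' t-test called 1 higher and 1 lower without adjustment and 0 with it. The median log2 difference of the annexins was 0.31, and that of all genes was 0.01. Both A-C/EBP arrays lay above all 4 differentiated arrays for 5 annexins and below them for 1, and over all genes 21.4% had no overlap. With 5-AZA, 0 annexins rose and 0 fell, where 0.17% of all genes rose and 0.115% fell. At an unadjusted p under 0.05 there were 2 of 9 (9.1% of all genes), Anxa8 and Anxa9, both higher and without overlap (16.4% of all genes had none), and the methods' t-test called 0 with or without adjustment. The median was 0.01 for the annexins and 0.04 for all genes. These comparisons share the 4 differentiated arrays, which differentiation uses as well.

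**Figure D1:**
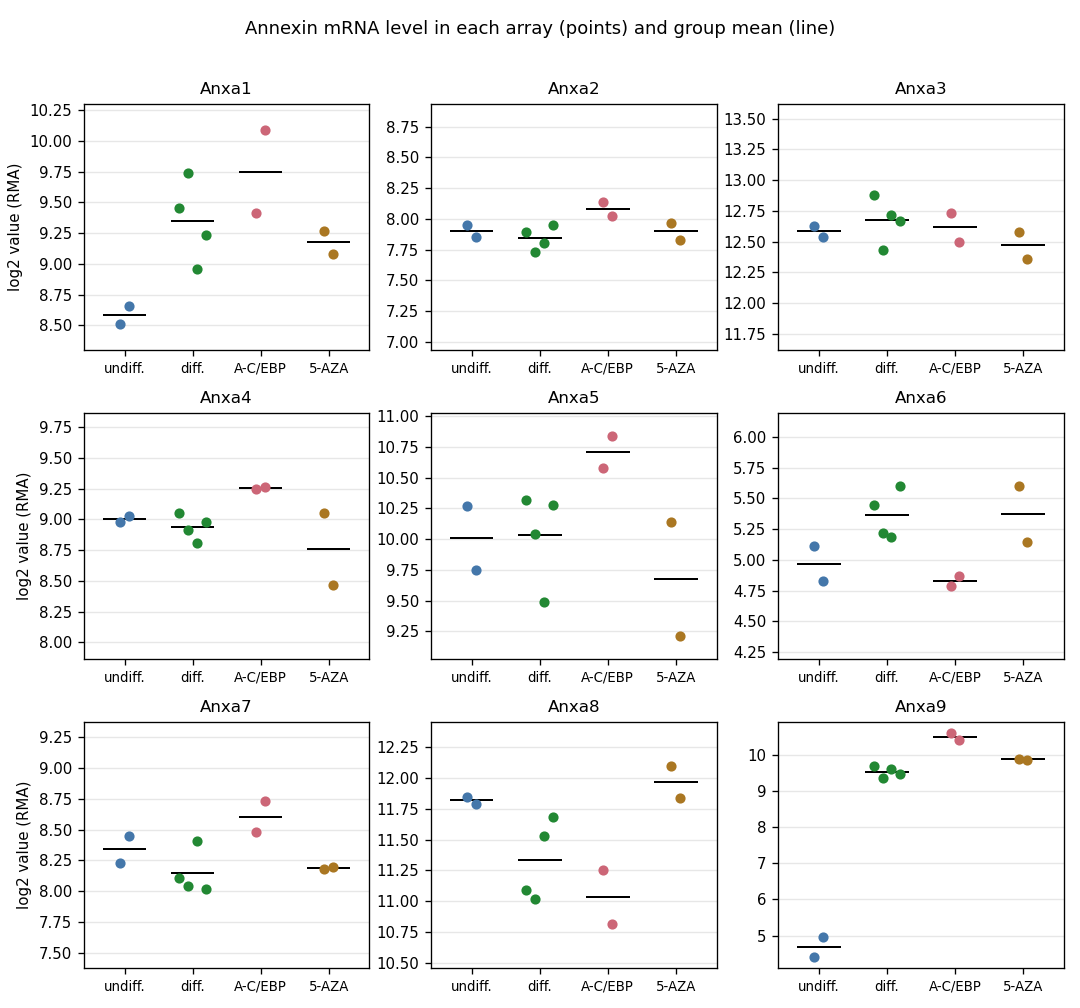
log2 mRNA level of the 9 measured annexins (vertical axis, own range in each panel) in the undifferentiated, differentiated, A-C/EBP and 5-AZA arrays (points), with the group mean as a line. Anxa9 lies at 4.41 and 4.97 in undifferentiated cells and between 9.36 and 10.60 in all others, and the differentiated and undifferentiated points of Anxa1, Anxa6, Anxa8 and Anxa9 do not overlap.

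**Figure D2:**
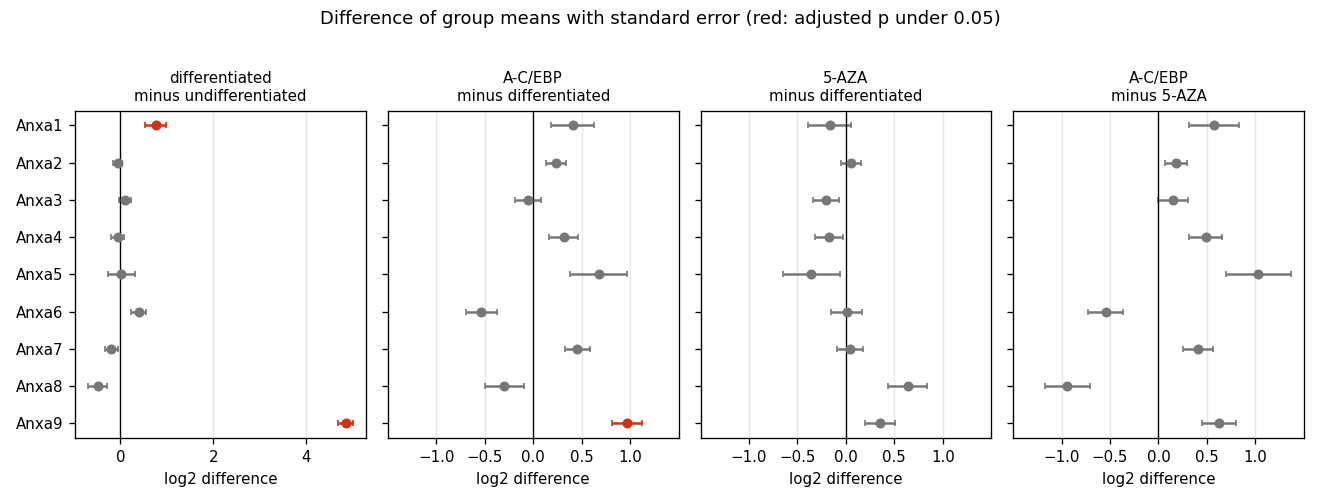
Difference of the group means on the log2 scale (horizontal axis, wider range in the leftmost panel) for each annexin in 4 comparisons, with the SE as a bar, red where the limma adjusted p is under 0.05. The calls are Anxa9 and Anxa1 in differentiation and Anxa9 with A-C/EBP, and Anxa8 lies on opposite sides of 0 with A-C/EBP (-0.30) and with 5-AZA (0.64).

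Anxa9 is an atypical annexin whose calcium-binding sites are altered compared with other members, and in human keratinocytes its product was described as pemphaxin, an acetylcholine-binding antigen of pemphigus vulgaris sera. Its level was 4.41 and 4.97 in the undifferentiated arrays, 9.70, 9.36, 9.61 and 9.48 in the differentiated, 10.60 and 10.42 in the A-C/EBP and 9.90 and 9.87 in the 5-AZA arrays. The groups followed each other in this order without overlap between undifferentiated, differentiated, 5-AZA and A-C/EBP cells. Undifferentiated replicate 1 lay below the median of its array and replicate 2 above it, so the starting level was near the middle of all probe sets. The difference upon differentiation was 4.85 on the log2 scale (standard error, SE, 0.15, adjusted p = 3.3e-07), the 3rd highest of 18193 genes. It passed the test under each alternative run, at 4.57 to 5.12. With A-C/EBP the level was higher than in differentiated cells by 0.97 (SE 0.15, adjusted p = 0.015). That call was lost without A-C/EBP replicate 1 (0.88, adjusted p = 0.075) and without A-C/EBP replicate 2 (1.06, adjusted p = 0.0909). With 5-AZA the difference was 0.35 (SE 0.15, adjusted p = 0.544). Set against each other directly, the A-C/EBP and 5-AZA arrays differed by 0.62 (SE 0.18, adjusted p = 0.105). All these values come from 1 probe set, of a type that can match several transcripts of the gene.

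Mouse Anxa9 lies on chromosome 3 between its neighbours Mindy1 and Cers2 and shares bases with both, 74 with Mindy1 and 410 with Cers2 (RefSeq, GRCm38.p6, chr3:95296093-95315180). RefSeq gives it a pair of promoter windows, each from 250 bases before to 50 bases after a start site. They are printed because 5-AZA inhibits the methylation of CpG, and because the windows differ in CpG content. Their methylation was not analysed here. CpG dinucleotides are in capitals, both windows are on the minus strand, and each runs 5′ to 3′.
Anxa9 upstream window, chr3:95315131-95315430: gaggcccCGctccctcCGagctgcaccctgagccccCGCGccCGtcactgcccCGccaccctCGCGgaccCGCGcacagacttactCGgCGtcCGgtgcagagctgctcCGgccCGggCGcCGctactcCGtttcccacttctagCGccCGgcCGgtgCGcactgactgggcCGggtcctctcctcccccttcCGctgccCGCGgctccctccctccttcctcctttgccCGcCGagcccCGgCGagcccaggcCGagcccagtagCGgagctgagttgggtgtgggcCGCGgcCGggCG
Anxa9 downstream window, chr3:95307143-95307442: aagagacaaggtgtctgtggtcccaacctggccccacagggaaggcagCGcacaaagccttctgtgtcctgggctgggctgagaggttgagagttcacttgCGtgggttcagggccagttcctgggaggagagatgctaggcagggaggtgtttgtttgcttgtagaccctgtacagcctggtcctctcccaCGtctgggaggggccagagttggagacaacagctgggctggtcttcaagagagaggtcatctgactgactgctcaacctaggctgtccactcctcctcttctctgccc
The upstream window holds 36 CpG and the downstream window 3, where the median of 32851 mouse promoter windows is 7, with 3 and 20 as the lower and upper quartiles. The upstream window overlaps the window of Cers2, which is read in the opposite direction, by 109 bases. Which of the start sites these cells use was not measured. Neither window holds TGACGTCA, the motif of CREB (present in 1.79% of all windows on either strand), TTGCGCAA, that of C/EBP (0.183%), its looser form TTNNGCAA (10.8%) or TGACTCA, that of AP-1 (5.2%).

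Both neighbours rose upon differentiation as well, where 6.64% of all genes rose. Cers2, which makes ceramides with very long acyl chains, rose by 0.93 on the log2 scale (adjusted p = 0.00354), and Mindy1, a deubiquitinase, rose by 0.57 (adjusted p = 0.00515). The call of Cers2 was lost without undifferentiated replicate 2 (0.76, adjusted p = 0.0503), and that of Mindy1 without undifferentiated replicate 1 (0.54, adjusted p = 0.0639). With A-C/EBP, where Anxa9 rose, the difference was 0.39 for Cers2 (adjusted p = 0.333) and -0.16 for Mindy1 (adjusted p = 0.629). Since the genes share bases, a signal from one transcript cannot be told apart from that of its neighbour by name alone.

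The genes whose level followed that of Anxa9 most closely over the 10 arrays were Pstpip2 (r = 0.990), Pdzk1ip1 (0.989), Endod1 (0.989), Mab21l4 (0.988) and Spns2 (0.987). These are descriptions over 18193 genes, and the points share their arrays and fall into undifferentiated arrays and all others. Pstpip2, an adaptor of the actin cytoskeleton in macrophages, was at 4.93 and 4.90 in the undifferentiated arrays, at 7.72, 7.34, 8.03 and 7.86 in the differentiated, at 8.21 and 8.12 in the A-C/EBP and at 8.0 and 7.94 in the 5-AZA arrays. Spns2, the exporter of sphingosine 1-phosphate, was at 6.28 and 6.42, at 9.54, 8.86, 8.81 and 9.04, at 10.07 and 9.80, and at 9.33 and 9.45 in the same order of groups. In both, the undifferentiated arrays were lowest, and the A-C/EBP arrays lay above all differentiated arrays. The latter did not hold for Mab21l4, which was at 9.76 on A-C/EBP replicate 2 and at 9.86 on differentiated replicate 1.

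**Figure D3:**
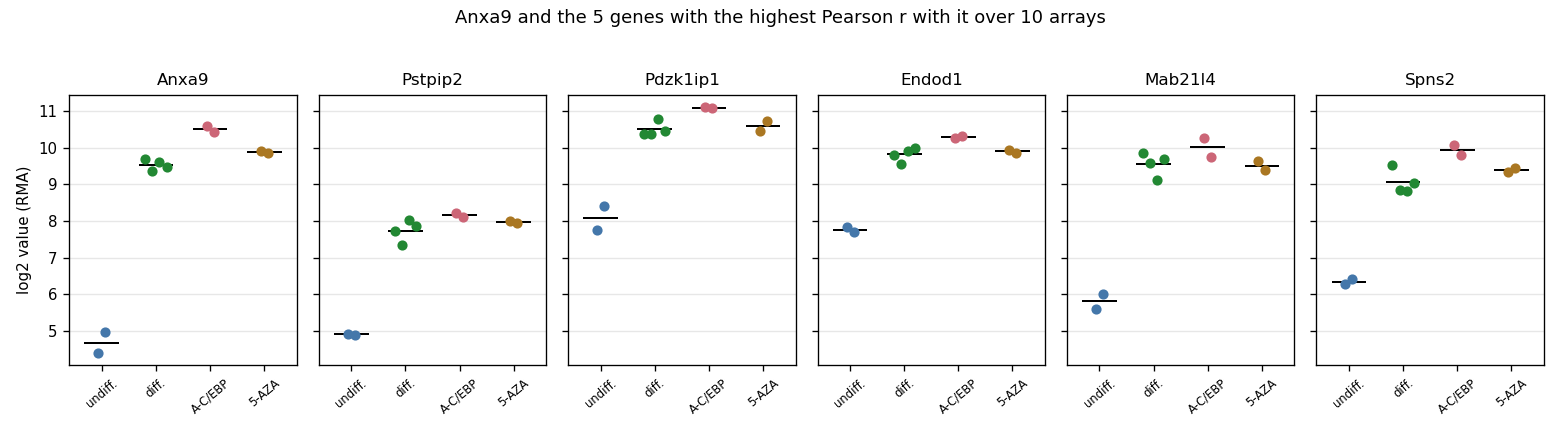
log2 mRNA level in each array (points) with the group mean (line) for Anxa9 and the 5 genes of highest Pearson r with it over 10 arrays. The undifferentiated arrays lie below all others in each panel, and levels are not comparable between genes.

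Anxa1 (annexin A1, lipocortin) is regulated by glucocorticoids, dampens inflammation through formyl peptide receptors and is a component of the cornified envelope. Its level was 8.51 and 8.66 in the undifferentiated arrays, 9.45, 9.74, 8.96 and 9.23 in the differentiated, 9.41 and 10.09 in the A-C/EBP and 9.27 and 9.08 in the 5-AZA arrays. All 4 differentiated arrays lay above both undifferentiated arrays, whereas the A-C/EBP and 5-AZA arrays overlapped the differentiated ones. It rose by 0.76 on the log2 scale upon differentiation (SE 0.22, adjusted p = 0.0461). This call was close to the threshold. It was lost without either undifferentiated array, without differentiated replicate 1, 2 or 4 and without either 5-AZA array, at 0.63 to 0.83 and adjusted p = 0.0585 to 0.259. The difference was 0.41 with A-C/EBP (adjusted p = 0.506) and -0.17 with 5-AZA (adjusted p = 0.893).

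The 2 probe sets of Anxa1 are of very unlike brightness. The bright one, 1448213_at, measured 12.995 and 13.091 in undifferentiated and 13.462 to 13.996 in differentiated cells, near the array maxima of 13.7 to 14.6. The dim one, 1444016_at, lay below the array median on 6 arrays and ranged from 3.93 to 6.16. Upon differentiation both were higher, by 0.78 and 0.74. With 5-AZA they went opposite ways (0.07 and -0.41), so the sign of the mean difference rests on the dim probe set. With the brightest probe set alone, the difference of Anxa1 upon differentiation had a limma adjusted p of 0.00478. Its call was lost with median centring (0.78, adjusted p = 0.0509) and with quantile normalization (0.86, adjusted p = 0.0615). The same held without probe sets of the suffixes _s, _x and _a (0.76, adjusted p = 0.0514). With the methods' t-test the adjusted p was 0.194.

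The promoter window of Anxa1 (RefSeq, GRCm38.p6, chr19:20390622-20390921, minus strand) is printed because it holds a match to the looser C/EBP motif, and C/EBP is the family blocked in the A-C/EBP cells. Capitals mark this match, TTTTGCAA at bases -143 to -136 from the start site, and TATAAA at -32 to -27, a motif added to the search after the others and found in 13.6% of all windows.
Anxa1 promoter window: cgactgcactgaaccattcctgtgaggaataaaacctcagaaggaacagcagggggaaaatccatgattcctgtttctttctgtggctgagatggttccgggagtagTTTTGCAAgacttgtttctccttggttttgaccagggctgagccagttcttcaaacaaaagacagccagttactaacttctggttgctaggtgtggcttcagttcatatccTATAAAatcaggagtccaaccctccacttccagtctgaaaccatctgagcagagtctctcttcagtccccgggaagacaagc
There were 8 annexins with a window, and 11 windows in all. The looser C/EBP motif was found in the window of Anxa1 and in 1 of those of Anxa4 (10.8% of all windows). The AP-1 motif was found in that of Anxa2 (TGAGTCA, at -95 to -89, 5.2% of all windows). The CREB motif (1.79%) and the strict C/EBP motif (0.183%) were found in none. A match is a sequence of letters and not evidence of binding.

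Anxa8, an epithelial annexin first described as an anticoagulant protein, had the smallest p-value of the annexins between the A-C/EBP and 5-AZA arrays. Its level was 11.85 and 11.79 in undifferentiated cells, 11.09, 11.02, 11.53 and 11.68 in differentiated cells, 11.25 and 10.81 in A-C/EBP cells and 12.10 and 11.84 in 5-AZA cells. The differentiated arrays lay below both undifferentiated arrays, and the 5-AZA arrays lay above all differentiated arrays. The A-C/EBP arrays overlapped the differentiated ones. The difference was -0.49 upon differentiation (SE 0.20, adjusted p = 0.154), -0.30 with A-C/EBP (SE 0.20, adjusted p = 0.612) and 0.64 with 5-AZA (SE 0.20, adjusted p = 0.327), none of which passed the test. With the replicate number as a block, which the labels do not describe as shared, Anxa8 passed upon differentiation (-0.76, adjusted p = 0.00433) and with 5-AZA (0.92, adjusted p = 0.0155). Differentiated replicates 3 and 4 (11.53 and 11.68) share their number with no other array. These differences thus rest on differentiated replicates 1 and 2 only (11.09 and 11.02). The pair of probe sets of Anxa8 had the same sign in every comparison, -0.47 and -0.51 upon differentiation, -0.21 and -0.40 in A-C/EBP cells, and 0.67 and 0.61 in 5-AZA cells.

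In the direct comparison of A-C/EBP with 5-AZA arrays (2 against 2), the differentiated arrays cancel in the difference. They still enter the spread behind its SE and p-value. In this comparison Anxa8 was lower by 0.94 on the log2 scale (SE 0.23, adjusted p = 0.0627). It thus missed the threshold, which it passed in 4 of 22 alternatives, among them those with quantile normalization (-0.96, adjusted p = 0.0353), without the dimmest 40% of genes (-0.94, adjusted p = 0.0471) and without probe sets below the array median on all arrays (-0.94, adjusted p = 0.0457), the last an alternative added after the data were seen. In this comparison 0 annexins rose, where 2.06% of all genes rose, and 0 fell, where 1.13% of all genes fell. At an unadjusted p under 0.05 there were 4 higher and 2 lower, where 15.4% of all genes lay under that p. The methods' t-test called 1 annexin without adjustment, Anxa9, and 0 with it. The A-C/EBP arrays lay above both 5-AZA arrays for 6 annexins and below them for 2, where 43.3% of all genes had no overlap. The median log2 difference was 0.41 for the annexins and -0.03 for all genes.

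Anxa2 and Anxa5 are widely expressed annexins with different partners. Anxa2 forms a complex with S100a10 that links membranes to the actin cytoskeleton and binds plasminogen. Its level was 7.95 and 7.85 in undifferentiated, 7.89, 7.73, 7.80 and 7.95 in differentiated, 8.14 and 8.02 in A-C/EBP and 7.97 and 7.83 in 5-AZA cells. These are means of 3 probe sets of very unlike brightness. The bright one, 1419091_a_at, measured 13.206 to 13.888, near the array maxima. Another, 1437692_x_at, measured 6.423 to 6.826, and 1437691_at lay below the array median on all 10 arrays. In 5-AZA cells the bright one was lower than in differentiated cells (-0.018) and the others were higher (0.051 and 0.125). The sign of that mean difference thus rests on the dimmer probe sets. In the mean, the A-C/EBP arrays were the highest, though by less than 0.5, and the other groups overlapped. The difference was -0.06 upon differentiation (adjusted p = 0.838), 0.23 with A-C/EBP (adjusted p = 0.337) and 0.05 with 5-AZA (adjusted p = 0.93). S100a10 was at 10.33 and 10.41 in undifferentiated, at 10.34, 10.58, 10.15 and 10.17 in differentiated, at 10.43 and 11.29 in A-C/EBP and at 9.96 and 10.18 in 5-AZA cells. Its highest value was on A-C/EBP replicate 2, the array that stood apart in its controls, and none of its differences passed the test (0.55 with A-C/EBP, adjusted p = 0.271).

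Anxa5 binds exposed phosphatidylserine and is used to stain dying cells. It was the annexin with the widest spread among replicates, at 10.27 and 9.75 in undifferentiated, 10.32, 10.04, 9.49 and 10.28 in differentiated, 10.58 and 10.84 in A-C/EBP and 10.14 and 9.21 in 5-AZA cells. Both A-C/EBP arrays lay above every other array. The difference was 0.02 upon differentiation (SE 0.29, adjusted p = 0.985), 0.68 with A-C/EBP (SE 0.29, adjusted p = 0.342) and -0.36 with 5-AZA (SE 0.29, adjusted p = 0.79). Between A-C/EBP and 5-AZA arrays it was 1.03 (SE 0.34, adjusted p = 0.157), and it ranged from 0.56 to 1.5 when 1 array was left out.

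Anxa6, whose core is duplicated and which organizes cholesterol-rich membrane domains, had lower values with A-C/EBP, where those of Anxa5 were higher. Its level was 5.11 and 4.83 in undifferentiated, 5.45, 5.22, 5.19 and 5.60 in differentiated, 4.79 and 4.87 in A-C/EBP and 5.60 and 5.15 in 5-AZA cells. The differentiated arrays lay above both the undifferentiated and the A-C/EBP arrays. The difference was 0.39 upon differentiation (SE 0.16, adjusted p = 0.147) and -0.54 with A-C/EBP (SE 0.16, adjusted p = 0.142). The fibroblast marker means were 5.21 and 5.68 on the A-C/EBP arrays, within or below the range of 5.47 to 6.38 in differentiated cells, and their part in the values of Anxa6 was not tested.

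The mean of Anxa6 is held down by 2 of its 4 probe sets, which lay below the array median on all 10 arrays and differed by 0.11 or less in the comparisons with differentiated cells. The brightest probe set, 1415818_at, measured 7.17 and 6.47 in undifferentiated, 7.64, 7.21, 6.98 and 7.72 in differentiated, 6.63 and 6.64 in A-C/EBP and 7.814 and 6.997 in 5-AZA cells. The next, 1429246_a_at, differed by 1.11 upon differentiation and by -1.23 with A-C/EBP. Without the dim probe sets, an alternative added after the data were seen, the mean differed by 0.84 upon differentiation (adjusted p = 0.0584) and by -0.99 with A-C/EBP (adjusted p = 0.0945), each more than 1.5 times the value over all its probe sets and short of the threshold.

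**Figure D4:**
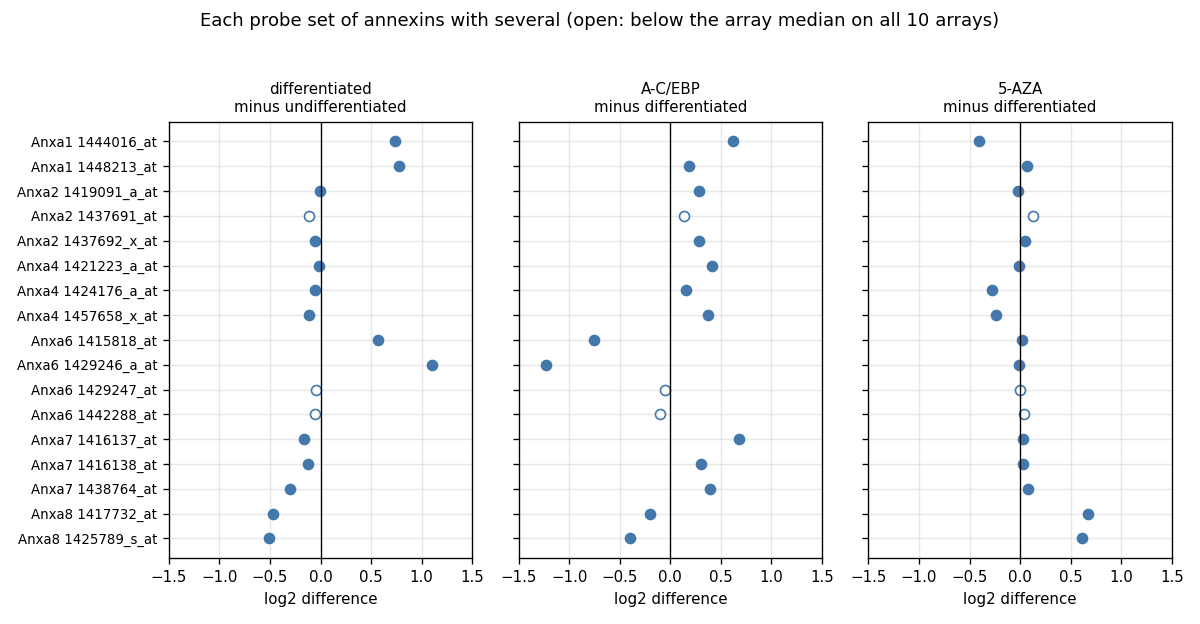
Difference of the group means on the log2 scale (horizontal axis) for each probe set of the annexins with more than 1, in 3 comparisons, open where the probe set was below the array median on all 10 arrays. The dim probe sets of Anxa6 lie near 0 while its others reach 1.11 and -1.23, and the probe sets of Anxa1 go opposite ways with 5-AZA (0.07 and -0.41).

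Anxa7 and Anxa4 were both higher with A-C/EBP in all of their probe sets, without passing the test. Anxa7, or synexin, promotes the fusion of secretory membranes. Its level was 8.23 and 8.45 in undifferentiated, 8.11, 8.04, 8.41 and 8.02 in differentiated, 8.48 and 8.73 in A-C/EBP and 8.18 and 8.20 in 5-AZA cells. Both A-C/EBP arrays lay above all differentiated arrays, by a narrow gap for A-C/EBP replicate 1. The difference was 0.46 (SE 0.13, adjusted p = 0.136), with 0.68, 0.30 and 0.40 in its 3 probe sets, and it was -0.19 upon differentiation (adjusted p = 0.452) and 0.04 with 5-AZA (adjusted p = 0.955).

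Anxa4 is an annexin of secretory epithelia that gathers into arrays on membranes. It was at 8.98 and 9.03 in undifferentiated, at 9.05, 8.91, 8.81 and 8.98 in differentiated, at 9.25 and 9.26 in A-C/EBP and at 9.05 and 8.47 in 5-AZA cells. The A-C/EBP arrays were the highest and 5-AZA replicate 2 the lowest. The difference with A-C/EBP was 0.31 (SE 0.15, adjusted p = 0.394), with 0.41, 0.16 and 0.37 in its 3 probe sets. Between A-C/EBP and 5-AZA arrays it was 0.49 (adjusted p = 0.184), which passed the test only without 5-AZA replicate 1 (0.78, adjusted p = 0.0279).

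Anxa3, an annexin known from neutrophil granules, differed little between the groups. It measured 12.63 and 12.54 in undifferentiated, 12.88, 12.43, 12.72 and 12.67 in differentiated, 12.73 and 12.50 in A-C/EBP and 12.58 and 12.36 in 5-AZA cells. All groups overlapped the differentiated arrays, which had a range of 12.43 to 12.88. The difference was 0.09 upon differentiation (adjusted p = 0.796), -0.06 with A-C/EBP (adjusted p = 0.934) and -0.21 with 5-AZA (adjusted p = 0.714). Anxa10 and Anxa13, the mouse annexins outside the list of 10, were below the array median on all 10 arrays, at 2.96 to 3.36 and 3.40 to 4.05, and 0 of them passed the test in any comparison. At an unadjusted p under 0.05 there was 1 with 5-AZA and in the direct comparison, in each case Anxa13.

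Among 15 named partners of annexins 12 were measured, and 3 rose and 0 fell upon differentiation (6.64% and 9.14% over all genes), with a median log2 difference of 0.01 beside -0.01 over all genes. S100a4, a calcium-binding partner of Anxa2, was at 10.40 and 10.35 in undifferentiated, 10.85, 10.95, 10.96 and 11.15 in differentiated, 10.87 and 11.28 in A-C/EBP and 12.01 and 11.90 in 5-AZA cells. It rose upon differentiation by 0.60 (adjusted p = 0.0093) and with 5-AZA by 0.97 (adjusted p = 0.0278), and was lower with A-C/EBP than with 5-AZA by 0.88 (adjusted p = 0.014). The call upon differentiation was lost without either undifferentiated array, and that with 5-AZA without either 5-AZA array or without differentiated replicate 1 or 2. The call between A-C/EBP and 5-AZA was lost without either 5-AZA array or without A-C/EBP replicate 1. S100a4 is also known as a fibroblast gene, and the fibroblast marker mean was 5.97 to 6.49 with 5-AZA against 5.47 to 6.38 in differentiated cells. Its part in this result was not tested.

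The other partners that rose upon differentiation were Ahnak, a large scaffold bound by Anxa2 and S100a10 (0.55, adjusted p = 0.01), and Tsg101, a subunit of the ESCRT machinery (0.65, adjusted p = 0.0129). Ahnak lost its call without undifferentiated replicate 1, and Tsg101 without either undifferentiated array. The call of Ahnak was also lost with the brightest probe set alone (0.4, adjusted p = 0.286). The same held without probe sets of the suffixes _s, _x and _a (0.36, adjusted p = 0.12). With A-C/EBP 0 partners rose or fell (1.49% and 0.572% over all genes), and 6 of 12 had an unadjusted p under 0.05 (13.6% over all genes). With 5-AZA 1 of 12 rose, S100a4, and 1 fell, Pla2g4a (0.17% and 0.115% over all genes). There 4 of 12 had an unadjusted p under 0.05 (9.1% over all genes). Between A-C/EBP and 5-AZA 0 rose and 1 fell, S100a4 (2.06% and 1.13% over all genes), and 7 of 12 had an unadjusted p under 0.05 (15.4%). Pla2g4a, the cytosolic phospholipase A2 that annexins can inhibit, was at 9.48 and 9.40 in undifferentiated, 9.15, 9.0, 8.64 and 8.87 in differentiated, 8.22 and 8.61 in A-C/EBP and 8.03 and 7.67 in 5-AZA cells. It decreased by 1.06 on the log2 scale with 5-AZA (adjusted p = 0.0379), a call that held in 9 of 18 alternatives and was lost without either 5-AZA array, without either undifferentiated array and without differentiated replicate 1, 2 or 4. Fpr2, a receptor for Anxa1, did not pass in any comparison (means of 4.27 to 4.59 over the groups).

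Genes of membrane repair showed 3 rises and 1 fall upon differentiation among 16 measured of 17 named (over all genes 6.64% rose and 9.14% fell), with a median of 0.05 beside -0.01 over all genes. The ESCRT-III subunits Chmp2b (0.66, adjusted p = 0.00226) and Chmp2a (0.51, adjusted p = 0.0275) and the small calpain subunit Capns1 (0.61, adjusted p = 0.0233) rose. Capn1, the large subunit of the calcium-dependent protease calpain 1, was at 9.33 and 9.03 in undifferentiated and at 8.28, 7.56, 7.38 and 8.27 in differentiated cells. It decreased by 1.31 on the log2 scale (adjusted p = 0.0213). Chmp2b kept its call in all of 19 alternatives. Chmp2a and Capns1 each lost theirs without either undifferentiated array or without differentiated replicate 1 or 4, and Capn1 without either undifferentiated array or without differentiated replicate 2. In the other comparisons 0 of these genes rose or fell, and 5, 1 and 7 had an unadjusted p under 0.05 with A-C/EBP, with 5-AZA and between the 2 in the direct comparison, where the shares of all genes were 13.6%, 9.1% and 15.4%.

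Copines, another family of calcium-dependent phospholipid-binding proteins, had 1 rise and 1 fall among 9 measured of 9 named upon differentiation, near the 6.64% and 9.14% over all genes, with a median of 0.00 beside -0.01 over all genes. Cpne5 rose by 0.63 (adjusted p = 0.00734), a call lost without undifferentiated replicate 1. Cpne2 decreased by 0.65 on the log2 scale (adjusted p = 0.0171), a call lost without either undifferentiated array. In the other comparisons 0 copines rose or fell, and 1, 4 and 3 had an unadjusted p under 0.05, in the same order and beside the same shares of all genes.

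Beside the other annexins, the nearest measured genes were mostly not called, as was true of genes in general. Over all genes 6.64% rose and 9.14% fell upon differentiation, and 1.49% rose and 0.572% fell with A-C/EBP. Upon differentiation Ice2, next to Anxa2, decreased by 0.79 on the log2 scale (adjusted p = 0.00143) and Bmp2k, next to Anxa3, decreased by 0.85 (adjusted p = 0.00104), while the annexins beside them did not pass the test. Tnip1, an inhibitor of NF-kappaB signalling next to Anxa6, rose by 0.78 upon differentiation (adjusted p = 0.00221) and by 0.93 with A-C/EBP (adjusted p = 0.00735). The second of these calls was lost without A-C/EBP replicate 2. Fbxo32, a muscle-wasting ubiquitin ligase next to Anxa13, rose by 1.19 upon differentiation (adjusted p = 0.000183).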

How the data were processed

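The authors hybridized mRNA of 10 keratinocyte samples to Affymetrix mouse arrays. They made the deposited log2 values with RMA in Expression Console (no version is given in the sources used here), which corrects background, normalizes arrays to each other and summarises each probe set. Very dim and very bright probe sets then show compressed differences. Of the 45101 probe sets, 34945 with a single symbol were averaged per gene, and 932 with several symbols, 9160 with none and 64 array controls were left out. limma 3.58.1 (R 4.3.3) fitted all 10 arrays with a mean per group and 6 residual degrees of freedom. Two-sided moderated p-values were adjusted over 18193 genes (Benjamini-Hochberg), and rises and falls are those at an adjusted p under 0.05. The fit was tested on simulated data. The number of arrays limits the precision.

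The annexins and the gene lists were chosen with earlier results of these data known. All annexins are named, with up to 4 called members of each other list per comparison, the 5 genes most like Anxa9 and the nearest measured genes. S100a10 and Fpr2 were singled out as partners after their values were seen. The alternatives changed the centring (median, quantile), the probe sets (brightest only, none with the suffixes _s, _x and _a, none of the dimmest 40% of genes), the model (intensity trend, replicate block, only the compared groups), the rule (a difference over 0.5 as well, the methods' t-test with and without adjustment) and the arrays (each left out). Other experiments of the study are not analysed here.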

Additional observations from a re-analysis of the deposited data

How the results depend on the processing

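Over the alternatives, 738 of 780 values of the 9 measured annexins kept their direction and side of the threshold, 14 lost a call, 11 gained one and 17 changed sign, the last all uncalled. With Anxa10 and Anxa13 included, changed signs came with the brightest probe set (5-AZA minus differentiated: Anxa1 0.07, Anxa2 -0.02; A-C/EBP minus 5-AZA: Anxa10 0.02), with quantile normalization (5-AZA minus differentiated: Anxa2 -0.01, Anxa6 -0.02) and with median centring (5-AZA minus differentiated: Anxa6 -0.04, Anxa7 -0.01). When 1 array was left out, differences that could change sign ranged, for 5-AZA minus differentiated, from -0.02 to 0.12 (Anxa2), -0.47 to 0.11 (Anxa4), -0.82 to 0.11 (Anxa5) and -0.22 to 0.24 (Anxa6), from -0.17 to 0.06 for Anxa3 with A-C/EBP, from -0.24 to 0.28 for Anxa5 and -0.16 to 0.02 for Anxa13 upon differentiation, and from -0.15 to 0.02 for Anxa10 in A-C/EBP minus 5-AZA.

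Upon differentiation, 2 annexins were called. It was 1 with median centring, 1 with quantile normalization, 1 with the methods' t-test adjusted and 0 without the _s, _x and _a probe sets, which leaves out Anxa4, Anxa5 and Anxa9 altogether. With A-C/EBP 1 was called, against 2 with the methods' t-test unadjusted, 0 with it adjusted and 0 without the _s, _x and _a probe sets. In A-C/EBP minus 5-AZA 0 were called, against 1 with the methods' t-test unadjusted, 1 with quantile normalization, 1 without the dimmest genes and 1 without probe sets below the median on all arrays. With 1 array left out, 1 to 2 annexins were called upon differentiation, 0 to 1 with A-C/EBP, 0 with 5-AZA and 0 to 1 in A-C/EBP minus 5-AZA. Where no cause is given by the construction of the alternative, the cause was not tested.

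Over all genes, 2870 were called upon differentiation, against 864 with the methods' t-test adjusted and 1435 (without undifferentiated replicate 1) to 2891 with 1 array left out. With A-C/EBP the 375 calls became 749 with the methods' t-test unadjusted, 0 with it adjusted and 54 (without A-C/EBP replicate 2) to 362 with 1 array left out. With 5-AZA the 52 became 24 with median centring, 24 in a fit of only the compared groups, 32 without the _s, _x and _a probe sets, 344 with the methods' t-test unadjusted, 0 with it adjusted and 2 (without 5-AZA replicate 2) to 57 with 1 array left out. In A-C/EBP minus 5-AZA the 580 became 96 in a fit of only the compared groups, 0 with the methods' t-test adjusted and 125 (without 5-AZA replicate 2) to 628 with 1 array left out.

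The labels number the arrays within each group, without saying that a number marks anything shared. Deviations of same-numbered arrays from their group means correlated at r = 0.093 to 0.43 across genes, with 2 pairs per comparison. Where both groups hold 2 arrays, both pairs give the same r by construction. Undifferentiated and differentiated replicates 1 were alike in hybridization controls (9.03 on both) and in Xist (5.84 and 5.88). Replicates 2 of these groups were at 10.07 and 10.37, and at 8.27 and 8.04. Xist was at 6.54 and 9.93 on the A-C/EBP and at 6.74 and 7.67 on the 5-AZA arrays. Whether a number marks a shared culture or batch was not tested. Differentiated replicates 3 and 4 share their number with no other array. With the replicate number as a block, comparisons with differentiated cells thus rest on differentiated replicates 1 and 2 only. In that fit 3 annexins were called upon differentiation (Anxa8 fell as well, at -0.76, adjusted p = 0.00433), 2 with A-C/EBP (Anxa7 as well, 0.53, adjusted p = 0.0491), 1 with 5-AZA (Anxa8, 0.92, adjusted p = 0.0155) and 2 in A-C/EBP minus 5-AZA (Anxa5, 1.03, adjusted p = 0.0409, and Anxa8, -0.94, adjusted p = 0.00502). Anxa13 passed there too (-0.44, adjusted p = 0.0486). Over all genes the block gave 3235, 773, 398 and 1384 calls in the same order.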
